A study of Mus musculus with 2 samples.

Results

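Genes of the *Trem2* pathway and of the disease-associated microglia program were followed across the cell classes of the adult mouse striatum. They are *Trem2*, *Tyrobp*, *Cst7*, *Cd9*, *Spp1*, *Itgax*, *Axl* and *Lyz2*, the 8 rows with these symbols among the 32285 genes of the count matrices. Counts of unique molecular identifiers (UMIs, which count each captured mRNA molecule once) came from 2 10x Genomics single-cell libraries, replicates 1 and 2 of 1 untreated group. The samples were labelled as glia-enriched brain cells from mice of 8 to 10 weeks, with strain C57/Bl6J in the strain field and C57BL/6NTac in the protocol, and the labels do not say how many mice each library held. Tissue had been digested with pronase and cleared of debris before capture. The paper's methods also name male mice, actinomycin D in the dissociation solutions and a fine filter chosen for its yield of glia. They give a somewhat younger age range than the labels do. No disease model or treatment is part of these data, so that the levels described here are those of untreated animals.

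TREM2 is a lipid-sensing receptor of microglia and other myeloid cells. It has no signalling tail of its own and signals through the adaptor TYROBP (DAP12), whose phosphorylated tail recruits the kinase SYK and, below it, phospholipase C gamma and PI3 kinases. In models of amyloid and demyelination, microglia pass into a disease-associated state that depends in part on *Trem2* and in which *Cst7* (an inhibitor of lysosomal cysteine proteases), *Itgax* (the integrin CD11c), *Spp1* (the secreted phosphoprotein osteopontin), *Axl* (a receptor tyrosine kinase that binds GAS6 on dying cells), *Cd9* (a tetraspanin) and *Lyz2* (lysozyme M) are raised.

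After low-quality barcodes and doublets were removed, 6802 cells of library 1 and 5205 of library 2 remained, in 13 clusters. The libraries held 44597660 and 37982720 UMIs and shared 9 cell barcodes. None of the 8 genes, and none of the related genes listed with them, was used to cluster the cells or to name the classes. Microglia-like cells numbered 1117 and 1022 and carried 8 of 8 microglia markers in both of their clusters. The first of these clusters was deep, with 1632 cells and a median of 6988 UMIs, and the second was shallow, with 507 cells, a median of 1256 UMIs and *Ccl4* as its leading gene. Macrophage-like cells numbered 94 and 76, carried 7 of 7 macrophage markers, and also had raised markers of lymphocytes, monocytes and dendritic cells. The other classes were astrocyte-like, oligodendrocyte-like, oligodendrocyte precursor (OPC)-like, neuroblast-like, neuron-like, endothelial-like and mural-like cells, called non-myeloid below. The mural-like class was mixed as well, with 5 of 5 fibroblast markers raised. Erythroid-like cells were left out of the tests, since library 2 held 11 of them.

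The 8 genes fell into distinct patterns. *Trem2* and *Tyrobp* were high in microglia-like cells, *Lyz2* was highest in macrophage-like cells, and *Cst7* and *Itgax* were found almost only in these myeloid classes and at very low levels. *Cd9*, *Axl* and *Spp1* were highest outside the myeloid classes, *Cd9* in OPC-like cells and *Axl* and *Spp1* in mural-like cells. Levels are given in CPM, the UMIs of a gene scaled to the total UMIs of its class in that library, and the intervals are exact Poisson 95% intervals that cover counting error only.

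**Figure D1:**
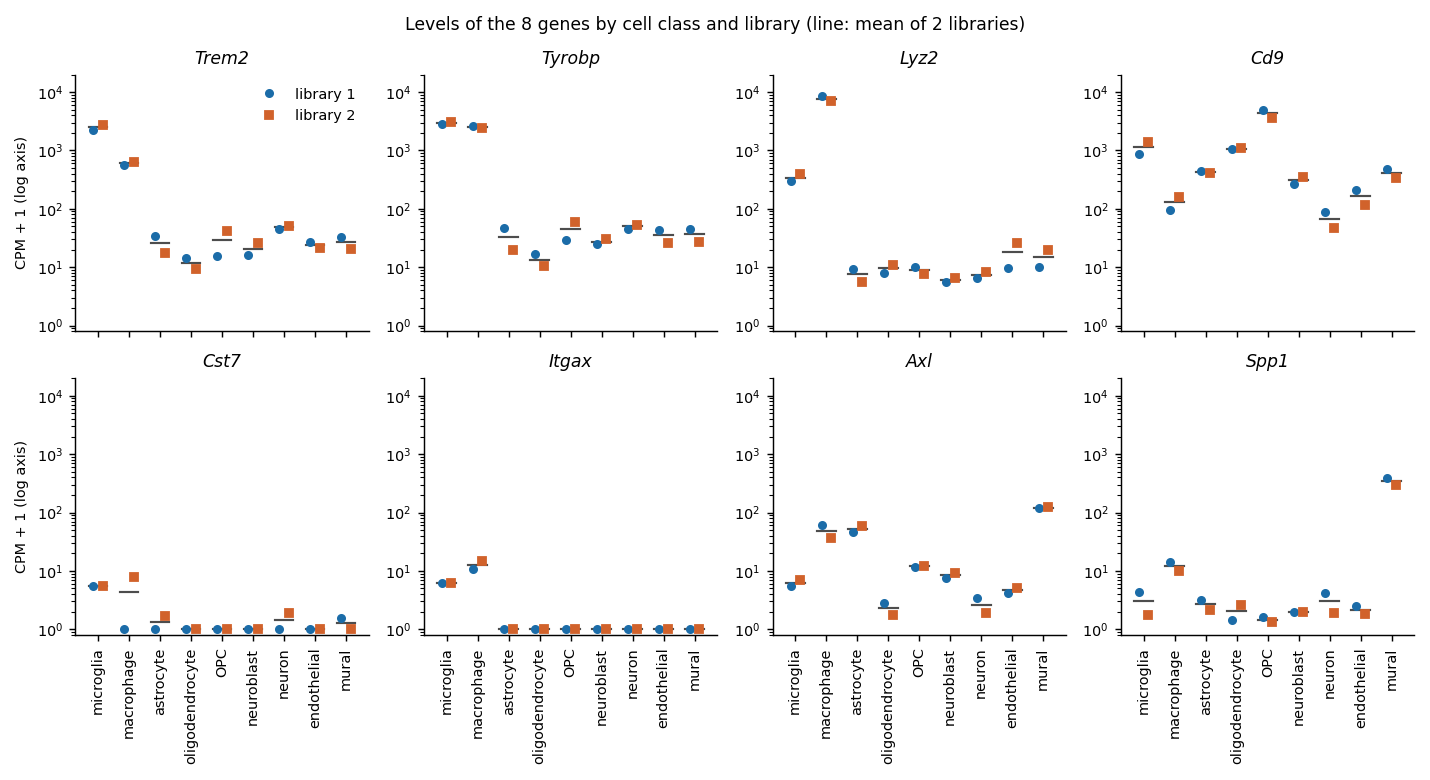
Level of each gene in 9 cell classes, as CPM + 1 on a log axis. Circles are library 1, squares library 2 and lines their mean. *Trem2* and *Tyrobp* stand between 2278 and 3063 CPM in microglia-like cells, while *Cst7* and *Itgax* lie near the foot of the axis in all classes.

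The receptor *Trem2* (ENSMUSG00000023992; GRCm38 chromosome 17, 48346401 to 48354147, plus strand) stood in microglia-like cells at 2278 CPM (2243–2314) in library 1 and 2732 (2688–2776) in library 2. In macrophage-like cells it stood at 571 (512–635) and 635 (563–714) CPM. The libraries therefore ordered the 2 myeloid classes the same way without overlap. Microglia-like cells supplied 94.0% and 94.9% of all *Trem2* UMIs of the analysed cells. Its adaptor *Tyrobp* (ENSMUSG00000030579; chromosome 7, 30413760 to 30417585, plus strand) stood at 2834 (2795–2873) and 3063 (3016–3109) CPM in microglia-like cells and at 2645 (2516–2778) and 2447 (2304–2598) in macrophage-like cells. The counting intervals of the adaptor also lay lower in macrophage-like cells, without overlap in either library, but by less than for *Trem2*. The test across libraries given below did not call this difference, and the macrophage-like class was mixed. Macrophage-like cells held 93.3% and 79.9% of the microglia-like level of *Tyrobp*, against 25.07% and 23.25% for *Trem2*.

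*Lyz2* (ENSMUSG00000069516; chromosome 10, 117277331 to 117282321, minus strand), the lysozyme of myeloid cells, stood at 8455 (8224–8691) and 7050 (6804–7302) CPM in macrophage-like cells and at 297 (284–310) and 387 (371–404) in microglia-like cells. It was present but low in microglia. Macrophage-like cells, which made up 1.38% and 1.46% of the cells, supplied 68.3% and 56.3% of the *Lyz2* UMIs. Its paralog *Lyz1* was counted with 3 and 6 UMIs in macrophage-like cells. Of the 50-base stretches of *Lyz2* transcripts, 15.4% also occur in *Lyz1*. A read that lies wholly within shared bases cannot be assigned to 1 of these genes. How many reads do so was not tested.

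*Cst7* (ENSMUSG00000068129; chromosome 2, 150570415 to 150578944, plus strand) was counted with 32 UMIs in microglia-like cells of library 1 and 25 in library 2, or 4.51 (3.08–6.36) and 4.58 (2.96–6.75) CPM. In macrophage-like cells it had 0 UMIs in library 1, which allows up to 5.00 CPM at a limit of 3 counts, and 3 UMIs in library 2. All non-myeloid classes together held 5 *Cst7* UMIs. *Itgax* (ENSMUSG00000030789; chromosome 7, 128129547 to 128150657, plus strand) had 37 and 29 UMIs in microglia-like cells, or 5.21 (3.67–7.18) and 5.31 (3.56–7.62) CPM, and 6 UMIs in macrophage-like cells of each library, or 9.99 (3.67–21.8) and 13.6 (4.99–29.6) CPM. No non-myeloid class held an *Itgax* UMI. The floor of an empty class was taken as 3 counts per library. The microglia-like level, taken without its counting error, was 23.4-fold and 24.9-fold the floor of oligodendrocyte-like cells, the class with the most UMIs. It was only 2.17-fold and 1.98-fold the floor of neuron-like cells, which had the fewest of the 7 non-myeloid classes compared.

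*Cd9* (ENSMUSG00000030342; chromosome 6, 125460266 to 125494791, minus strand) was widespread. It stood at 4972 (4895–5050) and 3663 (3597–3730) CPM in OPC-like cells, at 871 (849–893) and 1413 (1381–1444) in microglia-like cells and at 1050 (1032–1067) and 1093 (1075–1110) in oligodendrocyte-like cells. The 2 libraries differed in microglia-like cells by more than counting error, and the oligodendrocyte-like levels lay between theirs. Macrophage-like cells stood far lower, at 94.9 (71.9–123) and 161 (126–203) CPM. At a finer clustering (resolution 0.32), which drew the classes anew, an unnamed cluster of 274 cells led by *9630013A20Rik*, *Bmp4* and *Fyn* stood at 5025 and 4001 CPM, and the 2 OPC-like clusters stood at 2329 and 2207 and at 3873 and 3474. *Bmp4* and *Gpr17* were leading genes of this unnamed cluster and also, beside *Pdgfra*, of the OPC-like class above. The *Cd9* level of that class may therefore not be that of precursors alone.

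*Axl* (ENSMUSG00000002602; chromosome 7, 25757273 to 25788705, minus strand) stood at 116 (101.5–133) and 125 (108–144) CPM in mural-like cells and at 45.7 (39.7–52.4) and 58.5 (51.5–66.1) in astrocyte-like cells. Macrophage-like cells stood at 59.96 (41.99–83.0) and 36.3 (20.7–58.9) CPM and microglia-like cells at 4.51 (3.08–6.36) and 5.86 (4.01–8.27), with 32 UMIs in each library. *Spp1* (ENSMUSG00000029304; chromosome 5, 104435118 to 104441050, plus strand) stood at 389 (361–418) and 300.2 (274–329) CPM in mural-like cells. It had 8 and 4 UMIs in macrophage-like cells and 24 and 4 in microglia-like cells, the latter at 3.38 (2.17–5.03) and 0.732 (0.200–1.87) CPM. At the finer clustering the mural-like class separated, and *Spp1* stood at 670 and 2283 CPM in 56 fibroblast-like cells, at 855 and 259 in a cluster led by the pericyte genes *Vtn*, *Atp13a5* and *Kcnj8*, and at 143 and 69.1 in a cluster led by the smooth-muscle genes *Acta2* and *Tagln*. *Axl* was highest in the pericyte-led cluster, at 205 and 270 CPM, against 84.8 and 82.2 in the smooth-muscle-led cluster. The libraries disagreed on whether fibroblast-like or pericyte-led cells held more *Spp1*.

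Start regions of the 4 myeloid genes with a window in the promoter table used here are shown, because these genes shared the myeloid pattern. Each is the stretch from 250 to 50 bases before the RefSeq gene start on GRCm38.p6, written 5′ to 3′ on the strand of the gene. The windows are chr17:48346151-48346351 (plus strand) for *Trem2*, chr2:150570165-150570365 (plus) for *Cst7*, chr7:128129300-128129500 (plus) for *Itgax* and chr10:117282322-117282522 (minus) for *Lyz2*. Capitals mark matches, on either strand, to AGGAAGT (a word bound by ETS factors such as PU.1), TGAGTCA (AP-1) or TCACGTG (the E-box of lysosomal gene regulators).
Trem2: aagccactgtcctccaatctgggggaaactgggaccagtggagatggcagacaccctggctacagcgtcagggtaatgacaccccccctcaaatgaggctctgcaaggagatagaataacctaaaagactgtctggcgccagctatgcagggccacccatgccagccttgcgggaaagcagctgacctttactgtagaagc
Cst7: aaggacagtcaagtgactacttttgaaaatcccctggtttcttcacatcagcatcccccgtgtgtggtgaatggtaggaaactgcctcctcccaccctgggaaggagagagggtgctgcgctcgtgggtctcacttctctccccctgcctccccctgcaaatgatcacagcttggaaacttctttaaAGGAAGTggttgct
Itgax: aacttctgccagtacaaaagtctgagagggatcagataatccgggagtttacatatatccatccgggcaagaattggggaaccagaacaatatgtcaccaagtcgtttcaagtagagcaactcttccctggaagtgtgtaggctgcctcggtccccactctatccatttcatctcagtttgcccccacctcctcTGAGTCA
Lyz2: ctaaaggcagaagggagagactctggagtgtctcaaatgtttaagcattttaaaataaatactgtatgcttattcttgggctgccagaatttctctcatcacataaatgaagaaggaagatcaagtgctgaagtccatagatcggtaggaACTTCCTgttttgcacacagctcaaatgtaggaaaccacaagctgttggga
The AGGAAGT word occurred once in the *Cst7* window, starting 63 bases before the gene, and once on the opposite strand in the *Lyz2* window, starting 100 bases before it. The TGAGTCA word occurred once in the *Itgax* window, 56 bases before the start. None of the 3 words occurred in the *Trem2* window, and TCACGTG occurred in none of the 4. Of 32851 windows of this length over all genes, 5.71% held AGGAAGT, 3.62% TGAGTCA and 2.03% TCACGTG. These are matches of letters and not shown binding sites. Outside the myeloid genes, *Spp1* held AGGAAGT 112 bases before the first of its 2 starts, while the *Cd9* and *Axl* windows held none of the words.

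The first comparison asked which genes were higher in microglia-like cells than in the 7 non-myeloid classes, averaged on the log2 scale. Sums per library and class were fitted in edgeR with the library as a block, and p-values were adjusted over 15534 genes. All classes of a library come from 1 suspension. The block removes the overall difference between the 2 libraries, so the p-values measure how far class differences vary between them. This spread is estimated over all 9 classes together and may be technical. All 8 genes passed the filter on low counts, but *Cst7* and *Itgax* did so only through myeloid classes. For this pair the test could give a call of higher or none, and hardly one of lower. Of the 8 genes, 6 were higher and 0 lower, with this pair among the 6. Beside them stand 34.1% of all genes called higher and 28.6% called lower, or 62.7% in all. *Trem2* was higher by 7.14 on the log2 scale (standard error 0.19, adjusted p = 3.07e-15) and *Tyrobp* by 7.01 (0.19, 2.91e-15). *Lyz2* was higher by 5.68 (0.18, 2.62e-14) and *Cd9* by 1.86 (0.20, 3.87e-07). For *Cd9* the libraries alone gave 0.87 and 1.91, so that library 2 carried the larger difference. Values of the libraries alone, here and below, are differences of log2 CPM scaled to library sizes, without the TMM scaling of the fit. Both can therefore lie on the same side of the fitted value.

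*Cst7* (log2 fold change 3.37, adjusted p = 4.44e-06) and *Itgax* (3.86, 2.18e-06) were also called by edgeR, but their fold changes depend on the count added to near-empty classes, and DESeq2 called neither (adjusted p = 0.112 and 0.193). *Spp1* (log2 fold change -0.07, adjusted p = 0.758) and *Axl* (-0.39, 0.325) were not called. The libraries alone gave 0.03 and -1.31 for *Spp1* and -1.01 and -0.55 for *Axl*. For *Axl* the call appeared, as lower, with library sizes alone (adjusted p = 0.0204), at the finer clustering (0.0245), with at least 500 detected genes (0.000601) and under 20% mitochondrial UMIs (0.00913). The median of all genes was -0.077 with TMM scaling and -0.479 with library sizes alone, and the share of calls that were higher went from 54.3% to 33.9%, and to 40.7% with DESeq2.

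The levels outside the myeloid classes were set beside those of genes that mark microglia. Over the 14 sums of 7 non-myeloid classes and 2 libraries, *Trem2* stood at 0.299% to 1.97% of its level in microglia-like cells, with a median of 0.82%, and *Tyrobp* at 0.306% to 1.92%, with a median of 0.973%. The medians of *Cx3cr1*, *P2ry12*, *Tmem119*, *C1qa*, *C1qb*, *Csf1r* and *Ctss*, which are used as microglial markers or are abundant in microglia, ran from 0.639% (*Cx3cr1*) to 0.991% (*Ctss*). *Trem2* and *Tyrobp* thus stood outside the myeloid classes in about the same low ratio to microglia as the other microglial genes did, and the source of these UMIs was not tested. *Lyz2* stood higher on this scale, from 1.19% to 6.51% with a median of 2.48%, and was highest in endothelial-like (6.51%) and mural-like (4.79%) cells of library 2. Most *Lyz2* UMIs came from macrophage-like and not microglia-like cells, so that the microglial level is not the full reference for this gene.

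**Figure D2:**
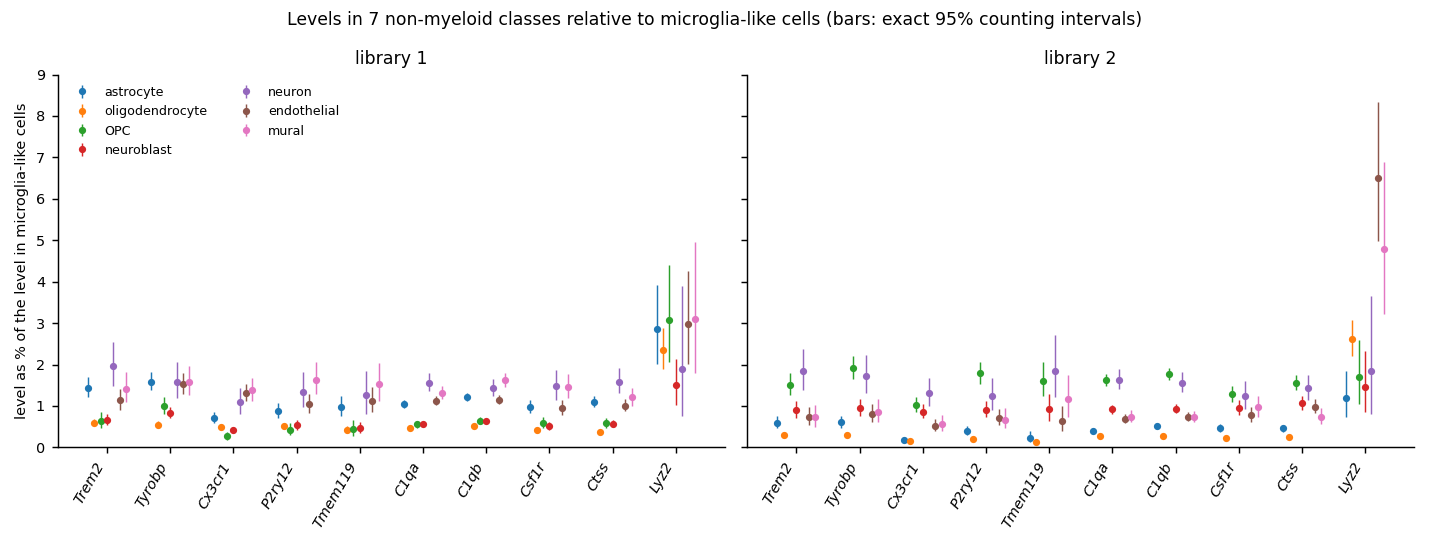
Level in each of 7 non-myeloid classes as a percentage of the level in microglia-like cells, for *Trem2*, *Tyrobp*, 7 microglial reference genes and *Lyz2*, by library. Bars are exact 95% counting intervals. The points of every gene but *Lyz2* stay under 2% in all classes, while some of their bars pass 2%.

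Which neighbours in the order of classes differed was tested pair by pair in the same fit. Classes further apart in the order can differ even where no neighbours were called. Over the 7 non-myeloid classes the mean level ran from 10.8 to 47.5 CPM for *Trem2* and from 12.5 to 48.8 for *Tyrobp*. For *Trem2*, microglia-like cells were higher than macrophage-like cells (adjusted p = 0.000135) and these higher than the next class, neuron-like cells (2.63e-07), while no neighbouring pair among the 7 non-myeloid classes was called (adjusted p from 0.152 to 0.971). *Tyrobp* was not called different between microglia-like and macrophage-like cells (0.402), was higher in macrophage-like than in neuron-like cells (3.78e-09), and gave no call between neighbours among the non-myeloid classes. For *Lyz2*, macrophage-like, microglia-like and non-myeloid cells made 3 separate steps. For *Cd9*, OPC-like cells were higher than microglia-like cells by 1.2 on the log2 scale (standard error 0.31, adjusted p = 0.0028). Microglia-like and oligodendrocyte-like cells were not called different (difference 0.01, standard error 0.30, adjusted p = 0.997), and astrocyte-like cells were lower than oligodendrocyte-like cells (6.65e-05). At the foot of the order, macrophage-like cells were higher in *Cd9* than neuron-like cells (0.00665).

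For *Axl*, mural-like cells were higher than astrocyte-like cells by 1.17 (standard error 0.21, adjusted p = 2e-04). Astrocyte-like and macrophage-like cells were not called different (0.713), and macrophage-like cells were higher than OPC-like cells, which came next (8.89e-06). For *Spp1*, mural-like cells were higher than macrophage-like cells by 4.62 (standard error 0.43, adjusted p = 3.13e-07), and no neighbours below them were called. For *Itgax*, macrophage-like and microglia-like cells were not called different (0.40), and all other classes held no UMI. No neighbouring pair was called for *Cst7*. Between these pairs of classes the share of all genes called ran from 18.9% for macrophage-like and microglia-like cells to 64.6% for microglia-like and neuron-like cells.

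The second comparison set macrophage-like against microglia-like cells. Of the 8 genes 4 were called, 2 higher and 2 lower in macrophage-like cells, beside 6.25% of all genes higher and 12.6% lower, or 18.9% in all. *Lyz2* was higher by 4.31 on the log2 scale (standard error 0.31, adjusted p = 5.52e-08) and *Axl* by 2.97 (0.34, 9.8e-06). *Cd9* was lower, at -3.40 (0.36, 3.99e-06), and *Trem2* at -2.27 (0.34, 0.000135). The direction of all 4 was the same in each library. *Tyrobp* (-0.44, adjusted p = 0.402), *Itgax* (0.88, 0.40) and *Cst7* (-0.77, 0.691) were not called, and *Cst7* took opposite signs in the libraries, at -3.43 and 0.53, on 0 and 3 UMIs in macrophage-like cells. *Spp1* (2.00, standard error 0.71, adjusted p = 0.0596) lay near the threshold and was called under 5 of 10 alternatives. The median of all genes was -0.269 here, -0.086 with library sizes alone and 0.062 with DESeq2, and the share of calls that were higher was 33.1%, 52.7% and 64.0%.

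Against the non-myeloid classes, again averaged on the log2 scale, macrophage-like cells were called higher for 7 of the 8 genes and lower for *Cd9*. Beside them stand 36.1% of all genes called, 19.2% higher and 17.0% lower. The 7 include *Cst7* and *Itgax*, which passed the filter on low counts only through myeloid classes. They also include *Axl* and *Spp1*, although mural-like cells stood above macrophage-like cells for both. The means were 120.7 against 48.1 CPM for *Axl* and 344.5 against 11.2 for *Spp1*. *Lyz2* was higher by 9.99 (standard error 0.18), *Tyrobp* by 6.57 (0.19), *Trem2* by 4.87 (0.22) and *Axl* by 2.58 (0.29), and *Cd9* stood at -1.54 (0.31), with adjusted p of 0.000735 for *Cd9* and below that for the others. For *Cd9* the libraries alone gave -2.32 and -1.22. The call of *Cst7* (2.60, adjusted p = 0.0232) rests on the 3 UMIs of library 2, since library 1 alone gave -0.16, and that of *Itgax* (4.74, adjusted p = 6.92e-05) on 12 UMIs, and DESeq2 made neither (0.291 and 0.180). The call of *Spp1* (1.93, adjusted p = 0.0179) was lost at the finer clustering (0.367), with at least 500 detected genes (0.607) and under 20% mitochondrial UMIs (0.451). Under each of these settings fibroblast-like cells formed a class of their own, apart from the mural-like cells.

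The macrophage-like class was mixed, and the genes were not evenly spread within it. A subcluster of 79 cells with the perivascular macrophage genes *Mrc1*, *Lyve1*, *Cd163* and *Pf4* stood at 8753 and 9405 CPM of *Lyz2*, 2754 and 3124 of *Tyrobp*, and 647 and 885 of *Trem2*, and had 0 UMIs of *Itgax* and of *Cst7*. A subcluster of 24 cells led by *S100a9*, *S100a8* and genes of MHC class II, with *Ccr2* and *Flt3* raised, held 11 of the 12 *Itgax* UMIs, at 52.4 (19.2–114) and 61.0 (19.8–142) CPM. The same 24 cells stood at 183 (113–280) and 97.6 (42.1–192) CPM of *Axl* and at 253 (170–364) and 500.3 (359–679) of *Cd9*, above the 28.6 and 25.4 CPM of *Axl* and the 47.7 and 76.2 CPM of *Cd9* in the macrophage subcluster. The third subcluster, of 67 shallow cells, was led by lymphocyte genes such as *Igkc* and *Trbc2*, and it stood at 5615 and 3106 CPM of *Lyz2*. With the 79 macrophage cells alone, a choice made after seeing the data, 4 genes were higher and *Cd9* lower than in the non-myeloid classes. Beside them, 4878 of all 15467 genes tested were called. The 4 genes called against microglia-like cells were the same as before, beside 2430 of 15467 genes. *Itgax* and *Cst7* have no fold there, and *Spp1* was not called (adjusted p = 0.253).

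Microglia-like cells were divided in the same way, without the 8 genes and the related genes listed with them. Other disease-associated genes were thus also left out, and a group set apart mainly by such genes could be missed. The microglia-like cells gave 6 subclusters, and with the libraries summed none of them passed 13.9 CPM of *Cst7*, 5.64 of *Itgax*, 17.2 of *Axl* or 11.8 of *Spp1*. *Trem2* stood between 2277 and 3049 CPM in all 6. A group of 19 cells led by interferon-induced genes (*Ifit3*, *Isg15*, *Irf7*) had 0 UMIs of *Cst7*, *Itgax* and *Spp1*, which allows up to 21.0 CPM, and stood at 2418 CPM of *Trem2* and 820 of *Cd9*. The depth of this small group could not show a level such as the 5 CPM of microglia-like cells as a whole.

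The receptor and its adaptor parted in a pair of shallow subclusters of similar depth. A group of 287 cells led by *Ccl5* stood at 3665 (3426–3915) and 4232 (3967–4509) CPM of *Tyrobp* and at 2086 (1908–2277) and 2480 (2278–2694) of *Trem2*. A group of 221 cells led by *Ccl4* and *Ccl3* stood at 1374 (1214–1549) and 1564 (1337–1817) CPM of *Tyrobp* and at 2794 (2564–3039) and 3504 (3161–3874) of *Trem2*. The deep cells lay between them for both genes, at 2853 and 3049 of *Tyrobp* and 2279 and 2724 of *Trem2*. *Cd9* had the order of *Trem2*, at 691 and 1144 CPM in the first group and 1523 and 2023 in the second. The fractalkine receptor gene *Cx3cr1* was low in the first group (875 and 1397 CPM) and stood at 3447 and 4433 in the second, near the 4025 and 4249 of the deep cells. The first and second group had median depths of 1316 and 1142 UMIs and median mitochondrial shares of 5.93% and 7.92%, against 6974 UMIs and 3.28% in the deep cells, and both had raised oligodendrocyte markers such as *Mbp*. The part of depth and of foreign transcripts in these levels was not tested.

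**Figure D3:**
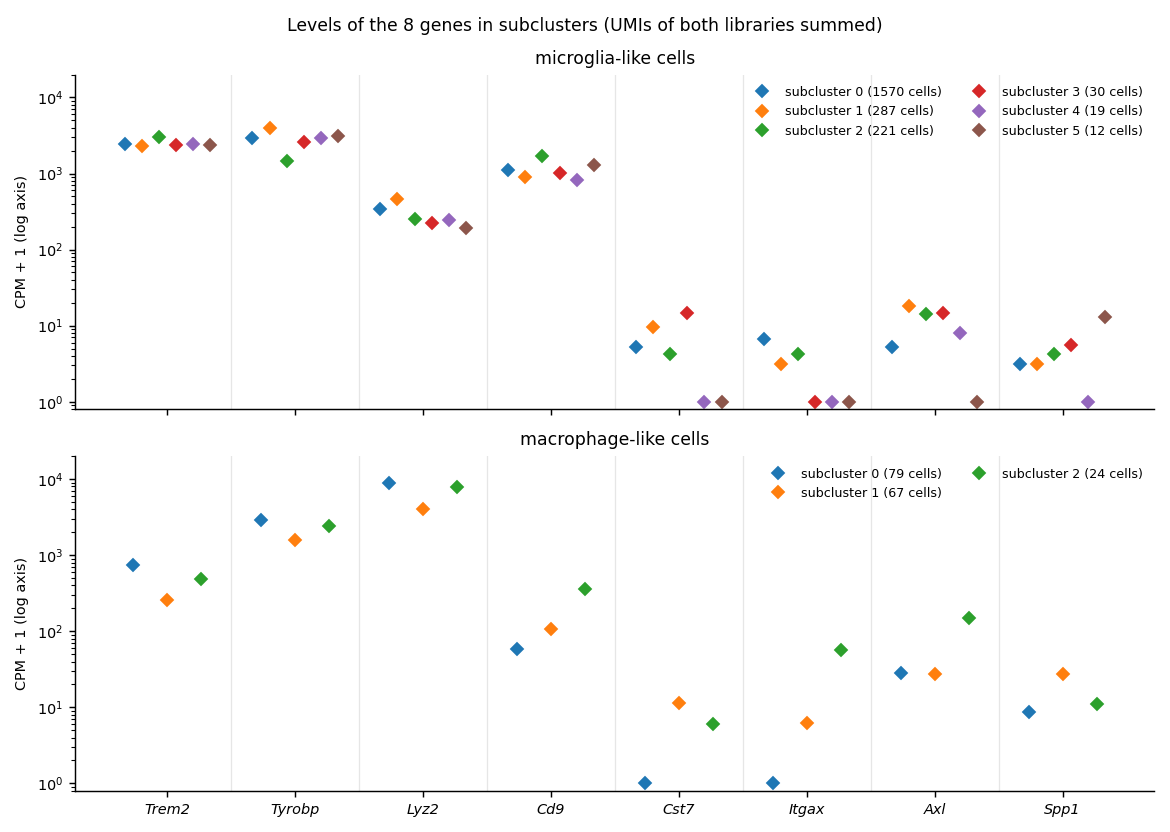
Level of each gene in the subclusters of microglia-like and macrophage-like cells, as CPM + 1 on a log axis, with the UMIs of both libraries summed. *Tyrobp* spreads from 1442 to 3939 CPM between the 2 shallow microglia-like groups (subclusters 2 and 1), and *Itgax* stands apart at 56.0 CPM in 24 macrophage-like cells (subcluster 2).

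Per cell, *Trem2* and *Tyrobp* were nearly universal in microglia. In microglia-like cells, 95.4% (exact binomial 95% interval 94.0–96.6%) and 98.4% (97.5–99.1%) held at least 1 UMI of *Trem2* and 94.9% and 97.5% at least 1 of *Tyrobp*. After each cell was thinned to 1000 UMIs, which left out 99 and 56 shallower cells, the shares were 87.6% and 90.4% for *Trem2* and 89.3% and 93.8% for *Tyrobp*. Oligodendrocyte-like cells, given for comparison, held a UMI of *Trem2* in 12% and 8.13% of cells before thinning and in 3.25% and 1.197% after it. Their median depths before thinning were 10998 and 12210 UMIs, against 6930 and 5502 in microglia-like cells. In macrophage-like cells the thinned share was 31.8% and 39.2% for *Trem2* and 92.0% and 71.6% for *Tyrobp*.

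A UMI of *Cst7* was present in 1.88% (1.17–2.86%) of microglia-like cells in library 1 and 2.25% (1.43–3.36%) in library 2, and of *Itgax* in 2.51% (1.67–3.60%) and 2.35% (1.51–3.47%). For comparison, 0 of 1133 and 0 of 1095 oligodendrocyte-like cells had either gene. At a limit of 3 cells, which is not an exact interval, this allows shares of up to 0.265% and 0.274%. In microglia-like cells *Axl* was detected in 2.42% and 2.35%, beside 2.03% and 1.00% of oligodendrocyte-like cells, and *Spp1* in 1.43% and 0.391% beside 0.441% and 0.274%. For *Axl* and *Spp1* the intervals of the microglia-like and oligodendrocyte-like shares overlapped in both libraries, and for *Cst7* and *Itgax* they did not. These shares are not scaled to depth, and oligodendrocyte-like cells were the deeper. On the CPM scale the *Axl* intervals did not overlap, at 3.08–6.36 in microglia-like against 1.14–2.65 in oligodendrocyte-like cells of library 1 and 4.01–8.27 against 0.390–1.40 in library 2. Those of *Spp1* were apart in library 1 (2.17–5.03 against 0.163–0.969) and overlapped in library 2 (0.200–1.87 against 1.04–2.45). Thinned to 1000 UMIs, the 4 genes were each found in at most 0.621% of microglia-like cells.

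Of 2139 microglia-like cells, 144 had a UMI of at least 1 of *Cst7*, *Itgax*, *Spp1* and *Axl*, 18 of at least 2 and 5 of at least 3. By library, those with at least 2 were 12 of 1117 (1.07%, 0.556–1.87%) and 6 of 1022 (0.587%, 0.216–1.27%). *Trem2* and *Tyrobp* were found together in 91.5% and 96.1% of microglia-like cells, and together with *Cd9* in 83.3% and 92.0%. Thinned, these shares were 78.5% and 85.0%, and 42.5% and 60.7% with *Cd9*. *Cst7* and *Lpl*, the lipoprotein lipase of the same disease program, were found together in 1 and 4 cells at full depth and in 0 after thinning.

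**Figure D4:**
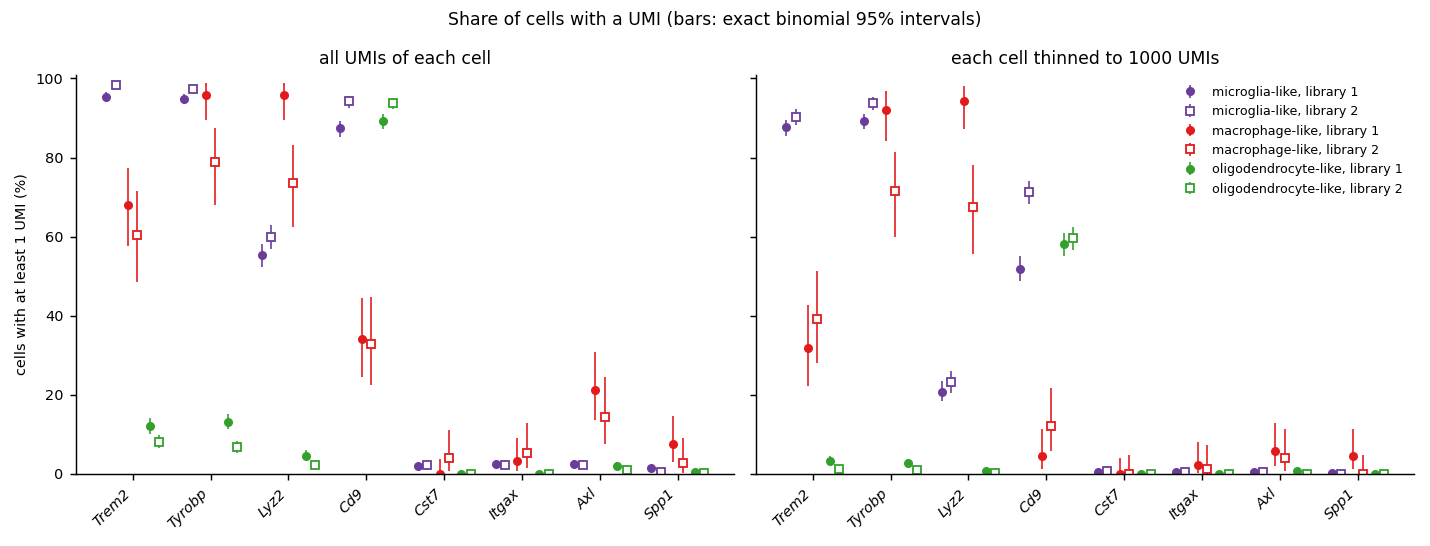
Share of cells with at least 1 UMI of each gene in microglia-like, macrophage-like and oligodendrocyte-like cells, before and after thinning each cell to 1000 UMIs, with exact binomial 95% intervals. *Trem2* and *Tyrobp* stay above 87% in microglia-like cells after thinning, while *Cst7*, *Itgax*, *Axl* and *Spp1* stay under 1%.

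The genes around these 8 were taken in lists by role. Their counts stand beside 34.1% of all genes called higher and 28.6% lower in microglia-like than in non-myeloid cells, and 6.25% higher and 12.6% lower in macrophage-like than in microglia-like cells. The macrophage-like class includes the 67 lymphocyte-led cells and the 24 cells led by *S100a9* and *S100a8*. Their part in the levels of the listed genes was not tested. All 14 genes of signalling below *Trem2* and *Tyrobp* were higher in microglia-like than in non-myeloid cells, with a median log2 fold change of 6.03 against -0.077 over all genes. *Pik3cg*, a PI3 kinase catalytic subunit, stood at 144 ± 1.34 CPM (SD, n = 2 libraries) in microglia-like cells and at most 3.34 in a non-myeloid class, and was higher by 6.79 (standard error 0.21, adjusted p = 1.94e-14). *Vav1*, a guanine nucleotide exchange factor, stood at 152 ± 1.70 CPM and was higher by 6.73 (0.18, 3.45e-15). Between macrophage-like and microglia-like cells 6 of the 14 were lower and 0 higher, beside 12.6% and 6.25% of all genes, with a median of -0.412 against -0.269 over all genes, and 5 were lower with library sizes alone and 4 with DESeq2. The inositol phosphatase gene *Inpp5d* (SHIP1) was lower, at -1.72 (0.26, adjusted p = 0.000142), at 156 ± 5.59 against 440 ± 22.8 CPM, and *Card9*, an adaptor of inflammatory signalling, at -1.45 (0.43, 0.0257), a call that library sizes alone and DESeq2 both lost. *Syk* was not called (-0.15, adjusted p = 0.762), at 87.6 ± 10.8 and 82.9 ± 4.34 CPM.

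Of 4 ligands and shedding enzymes of TREM2, 2 were higher and 1 lower in microglia-like than in non-myeloid cells (median 0.709), counts near the 34.1% and 28.6% of all genes, and 1 was higher and 2 lower in macrophage-like than in microglia-like cells (median -0.482), beside 6.25% and 12.6% of all genes. *Apoe*, a lipid carrier that TREM2 binds, stood at 46990 ± 7538 CPM in macrophage-like cells, 28420 in astrocyte-like cells and 1620 ± 286 in microglia-like cells. It was higher in macrophage-like than in microglia-like cells by 4.64 (standard error 0.42, adjusted p = 6.63e-07) and not called between microglia-like and non-myeloid cells (-0.40, adjusted p = 0.239). *Clu*, another ligand, stood at 5965 CPM in astrocyte-like cells and was lower in microglia-like cells (-1.63, adjusted p = 1.25e-05). The sheddases *Adam10* and *Adam17* were higher in microglia-like than in non-myeloid cells, by 1.82 and 2.34, and lower in macrophage-like than in microglia-like cells, at -1.70 and -1.21. Endothelial-like cells matched microglia-like cells in *Adam10* level, at 229 CPM each.

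Of 7 further genes of the Trem family and of receptors that couple to TYROBP, 3 passed the filter on low counts. *Clec5a* stood at 129 ± 3.82 CPM in microglia-like cells and was higher than in non-myeloid cells by 6.83 (standard error 0.14, adjusted p = 3.11e-16), and lower in macrophage-like cells at -1.57 (0.24, 0.000163). *Treml2* was higher in microglia-like cells by 4.24 (0.30, 2.27e-08) at a level of 8.28 ± 0.839 CPM. It passed the filter only through myeloid classes, so a call of lower was hardly possible. *Treml4* stood at 15.5 ± 10.2 CPM in macrophage-like cells and had 1 UMI in microglia-like cells, at 0.0915 CPM. It was called higher in macrophage-like cells by edgeR (adjusted p = 0.0011), though not by DESeq2. *Treml4* passed the filter only through macrophage-like cells, so here too a call of lower was hardly possible.

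Of 4 relatives and ligands of *Axl*, 3 were higher and 1 lower in microglia-like than in non-myeloid cells (median 3.05), beside 34.1% and 28.6% of all genes, and 1 was higher and 2 lower in macrophage-like than in microglia-like cells (median -0.662), beside 6.25% and 12.6%. *Mertk*, the TAM receptor of phagocytes, stood at 382 ± 61.3 CPM in microglia-like cells and 373 in astrocyte-like cells, and was higher in microglia-like than in non-myeloid cells by 4.0 (standard error 0.22, adjusted p = 5.7e-11), while the third receptor *Tyro3* was lower (-2.44, adjusted p = 4.64e-07). Their ligand *Pros1* was higher by 4.32 (0.11, 1.72e-15). The ligand *Gas6* stood at 677 ± 164 CPM in macrophage-like cells and 146 ± 8.06 in microglia-like cells, a difference of 1.99 (0.17, 3.89e-07), and *Mertk* (-1.80, with -1.18 and -1.91 in the libraries alone) and *Pros1* (-1.72) ran the other way. In macrophage-like cells *Axl* and *Gas6* were thus higher and *Mertk* (not called by DESeq2) and *Pros1* lower than in microglia-like cells.

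Of 23 other disease-associated genes in the files, 15 were higher and 3 lower in microglia-like than in non-myeloid cells (median 2.13), beside 34.1% and 28.6% of all genes. Among those higher were the lysosomal *Cd68* (591 ± 84.6 CPM, 6.66, adjusted p = 3.15e-16) and the chemokine *Ccl6* (6.52, 9.16e-15). The lower ones were *Fabp5* (-2.33), *Csf1* (-0.54, with -0.61 and -1.38 in the libraries alone) and *Ank*. *Gpnmb* had 3 UMIs in microglia-like cells and 0 in macrophage-like cells. *Lpl* stood at 28.6 ± 19.1 CPM in microglia-like cells. In macrophage-like against microglia-like cells 8 were higher and 6 lower (median 0.040), beside 6.25% and 12.6% of all genes. The growth factor *Igf1* stood at 282 ± 13.6 against 2.45 ± 0.676 CPM and was higher by 6.45 (standard error 0.57, adjusted p = 7.51e-07), the inhibitory receptor *Lilrb4a* at 118 ± 35.1 against 1.63 ± 1.31 CPM by 5.71 (0.51, 5.12e-06), and the galectin *Lgals3* at 89.2 ± 1.04 against 2.96 ± 0.994 CPM by 4.57 (0.40, 4.43e-07). *Csf1* (-2.96, with -4.53 and -1.58 in the libraries alone, and not called by DESeq2) and the adhesion gene *Cadm1* (-2.47) were lower. *Clec7a* was not analysed here.

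Of 4 integrin genes that pair with or resemble *Itgax*, 2 were higher and 0 lower in microglia-like than in non-myeloid cells (median 3.53), beside 34.1% and 28.6% of all genes, and 1 was higher and 2 lower in macrophage-like than in microglia-like cells (median -1.15), beside 6.25% and 12.6%. *Itgam* (CD11b) stood at 766 ± 16.3 CPM in microglia-like cells and was higher than in non-myeloid cells by 7.48 (standard error 0.19, adjusted p = 1.68e-15), and the shared beta chain *Itgb2* stood at 220 ± 14.9 CPM and was higher by 6.97 (0.15, 3.86e-16). Both were lower in macrophage-like cells, at -2.74 and -1.54, where *Itgal*, the alpha chain of LFA-1, stood at 57.6 ± 43.7 CPM and was higher by 6.36 (0.58, 6.73e-06). The 67 lymphocyte-led cells belong to this class, and their part in the *Itgal* level was not tested.

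Of 7 receptor chains of osteopontin, 5 were higher and 1, *Itga4*, was lower in microglia-like than in non-myeloid cells (median 1.90), beside 34.1% and 28.6% of all genes. In microglia-like cells *Itgb5* stood at 1110 ± 224 CPM and was higher than in non-myeloid cells by 5.95 (standard error 0.12, adjusted p = 2.26e-16), and *Itgb3* by 4.36 (0.24, 4.8e-11). In macrophage-like against microglia-like cells *Itga4* (5.74, adjusted p = 7.18e-10) and *Cd44* (4.89, 5.06e-06) were higher, and the other 5 of 7 were lower (3 with library sizes alone and 3 with DESeq2), led by *Itgb3* (-3.65, with -5.85 and -2.29 in the libraries alone) and *Itgb5* (-2.86), beside 6.25% and 12.6% of all genes higher and lower. All 5 tetraspanins related to *Cd9* were higher in microglia-like cells than in the average of the non-myeloid classes, led by *Cd53* (7.24) and *Cd37* (7.14). *Cd81* stood at 2647 ± 26.9 CPM in microglia-like cells, below the 3861 CPM of oligodendrocyte-like cells. All 5 were lower in macrophage-like than in microglia-like cells (4 with library sizes alone and 2 with DESeq2), as was *Cd9*. They were led by *Cd81* (-2.51, adjusted p = 9.62e-09 in edgeR). All 3 genes tied to *Cst7* were higher in microglia-like than in non-myeloid cells (median 5.09). *Cst3*, its abundant relative, stood at 78790 ± 2234 CPM in microglia-like and 10530 ± 70.7 in macrophage-like cells (-3.12, adjusted p = 8.81e-08). *Ctsc*, which encodes the protease cathepsin C, a target of the *Cst7* product cystatin F, was higher in macrophage-like cells by 1.53 (0.25, 0.000267), at 1124 ± 259 against 339 ± 38.0 CPM.

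**Figure D5:**
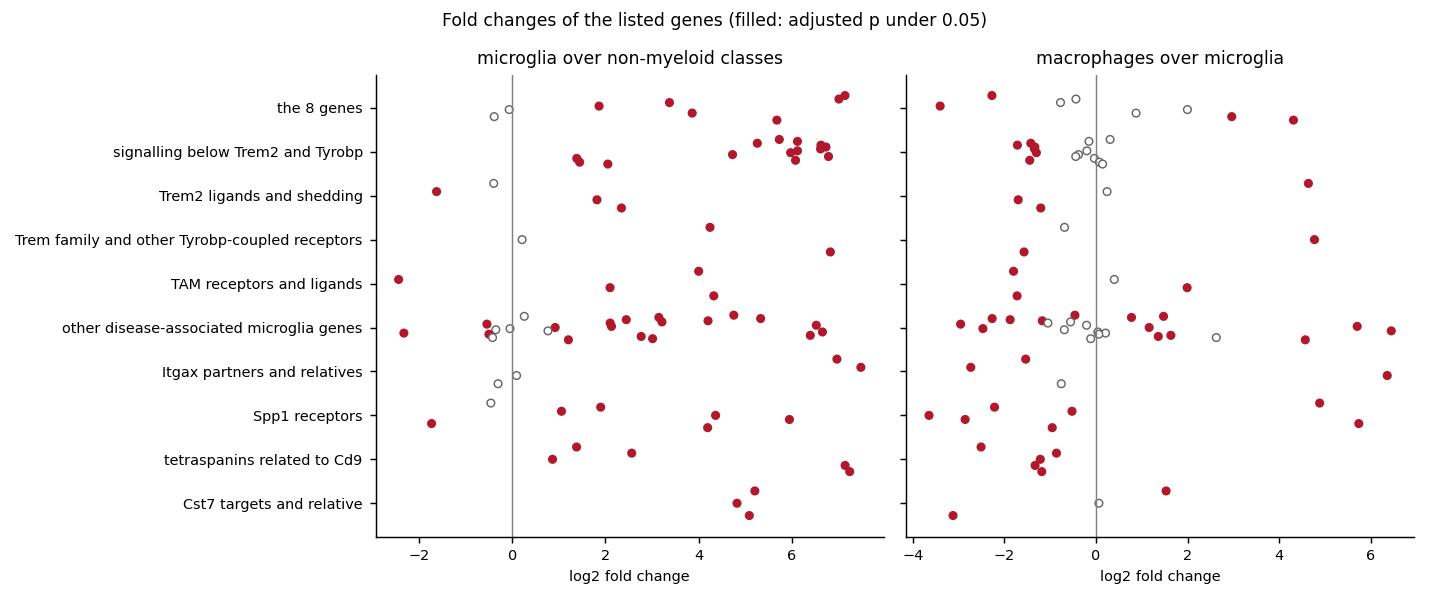
Log2 fold changes of the 8 genes and of the listed genes for microglia-like over non-myeloid cells (left) and macrophage-like over microglia-like cells (right). Filled points have an adjusted p under 0.05 in edgeR. All 14 signalling genes lie right of 0 on the left, and all 5 tetraspanins lie left of 0 on the right, of which 4 were called with library sizes alone and 2 with DESeq2.

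The genes most like each of the 8 were sought by Pearson's r of log2(CPM + 1) over the 18 sums of 9 classes and 2 libraries, among 13685 genes. Sums of a library share its suspension and sequencing, so r is a description. *Trem2* was most like *Ctss*, *Ly86* and *Csf1r* (r from 0.992 to 0.996) and *Tyrobp* most like *Fcer1g*, *C1qa* and *C1qc* (0.997 to 0.998). *Lyz2* was most like *Ms4a6c*, *Ccl12* and *Scimp* (0.976 to 0.982) and *Itgax* like *Trim30c*, *Lilra5* and *Gm26740* (0.993 to 0.996). *Spp1* was most like *Slc6a13*, *Pcolce* and *Itih2* (0.974 to 0.984). The nearest genes of *Cst7* were *Fcrl1*, *Gm15232* and *Spns3* (0.921 to 0.938), those of *Cd9* *Papss1*, *Tns3* and *Chst8* (0.885 to 0.913), and those of *Axl* *Igfbp2*, *Lgals1* and *Cmbl* (0.869 to 0.927). Some of the genes paired with *Cst7* and *Itgax* are themselves low, so that a few UMIs can set these values.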

How the data were processed

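Single-cell 3′ libraries of 2 samples of 1 group were used. The authors aligned reads to mm10 and deposited UMI count matrices from Cell Ranger, version 4.0 in the submitters' processing notes. From these counts, barcodes with at least 300 detected genes were kept, doublets were removed with Scrublet in scanpy 1.11.5, and cells were integrated and clustered in Seurat 5.3.0 (2000 variable genes, 30 components, resolution 0.08) without 80 listed genes and 97 cell-cycle genes. A class was named from at least 3 markers raised 2-fold. Counts were summed per library and class and tested with edgeR 4.0.16 (quasi-likelihood, TMM, library as block, prior count 2, Benjamini-Hochberg threshold 0.05), for classes with at least 20 cells per library, and DESeq2 1.42.0 was an alternative. The block pairs classes that come from the same suspension. The procedure was tested on simulated data of 15534 genes for microglia-like over non-myeloid cells. It recovered 80% of 100 genes changed 2-fold and 97% of 100 changed 4-fold, with 18 of its 195 calls (9.23%) on unchanged genes. The simulated classes shared 1 profile without a library effect, and only the changed genes differed, all higher in microglia-like cells. In the data 62.7% of genes were called, so these rates need not hold there. Libraries held 44597660 and 37982720 UMIs. Intervals are exact at 95% and cover counting error only. Limits given for 0 UMIs or 0 cells were set at 3 counts or 3 cells and are not such intervals. Named genes of each list were those with the largest called change in each direction (up to 2 higher and 2 lower) and the same direction in both libraries, and others (*Syk*, *Lgals3*, *Gpnmb*, *Lpl*, *Ank*) were chosen after their values were seen. The 8 genes and the lists were chosen with earlier results of these data known. Alternatives changed the scaling, filter, block, resolution, doublets, cell filters, libraries and depth.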

Additional observations from a re-analysis of the deposited data

How the results depend on the processing

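Without the replicate block the number of the 8 genes called stayed at 6, 4 and 8 in the 3 comparisons, and the genes called went from 9746 to 9124, from 2935 to 2515 and from 5614 to 5371. With macrophage-like cells of the macrophage subcluster alone, chosen after seeing the data, 5 of the 8 genes were called over non-myeloid classes, beside 4878 of all 15467 genes. *Cst7* and *Itgax*, with 0 UMIs in that subcluster, have no fold. *Cst7* in macrophage-like over non-myeloid cells ran from -0.16 to 3.57 when either library was left out, with the lower value from library 1 alone. Values of a single library are differences of log2 CPM, not fits, and come with no test. *Cst7* was not among the genes tested at resolution 0.32. Thinned to 1000 UMIs, the mean shares of microglia-like cells with a UMI were 89.0% for *Trem2*, 91.5% for *Tyrobp*, 61.5% for *Cd9*, 22.0% for *Lyz2*, 0.507% for *Cst7*, 0.404% for *Itgax*, 0.453% for *Axl* and 0.147% for *Spp1*, against 96.9%, 96.2%, 90.8%, 57.6%, 2.06%, 2.43%, 2.38% and 0.912% at full depth. With doublets kept the *Axl* share was 2.70%. Depth limits *Cst7*, *Itgax*, *Spp1* and *Axl* in myeloid cells, where single UMIs decide the per-cell values.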
